A study of Homo sapiens with 10 samples.

Results

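The genes described here are HDAC1 to HDAC10, which encode the zinc-dependent histone deacetylases of class I (HDAC1, HDAC2, HDAC3 and HDAC8), class IIa (HDAC4, HDAC5, HDAC7 and HDAC9) and class IIb (HDAC6 and HDAC10). They were taken by gene symbol from a deposited table of 21174 Ensembl genes, and all 10 were found. All 10 also passed the filter on low counts, as did 11961 genes in all. The libraries are 5 from clones labelled CREBBP+/- (columns Het_6 to Het_10) and 5 from clones labelled CREBBP+/+ (columns WT_1 to WT_5). The clones are of U2932, an established cell line from a human diffuse large B cell lymphoma, grown in RPMI medium with serum, and the labels name no treatment. Nothing in the sources used here says how CREBBP was altered in the clones. The labels do not say that libraries came from separate cultures, so p-values rest on the variation among these 10 libraries, which may be technical. In bulk RNA, fewer cells of a kind and less RNA per cell cannot be told apart.

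CREBBP and its paralog EP300 place acetyl groups on lysines of histones and other proteins, and histone deacetylases remove them. HDAC1 and HDAC2 work inside the NuRD, CoREST, SIN3 and MiDAC complexes, and HDAC3 inside the NCoR complex, which the repressor BCL6 brings to enhancers that CREBBP activates in germinal centre B cells. Class IIa enzymes have little activity of their own on acetyl-lysine, bind the MEF2 transcription factors and leave the nucleus when kinases create binding sites for 14-3-3 proteins. HDAC6 deacetylates tubulin in the cytoplasm, HDAC8 deacetylates the cohesin subunit SMC3, and HDAC10 acts on acetylated polyamines.

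The libraries did not divide by genotype. Average-linkage clustering of log2 CPM without the 10 deacetylase genes gave WT_1, WT_2 and Het_8 (called the set of 3 here), WT_3, WT_4, WT_5, Het_6 and Het_7 (the set of 5), and the pair Het_9 and Het_10. CPM are a gene's counts divided by the library's TMM-scaled total, times 1000000. The library totals ran from 10615977 to 23020694 counts, of which the 10 genes took 0.0786 to 0.0956%. CREBBP itself stood at 69.6 ± 10.2 CPM over the 5 CREBBP+/- libraries, against 115 ± 13.5 CPM over the 5 CREBBP+/+ libraries (SD), without overlap (exact two-sided permutation p = 0.00794, the smallest that 5 against 5 allow). Its log2 fold change of -0.73 (SE 0.12) did not pass over all genes in edgeR (adjusted p = 0.395) and did in DESeq2 (adjusted p = 0.000105). The B cell markers MS4A1, CD79A, CD79B, PAX5 and CD22 had between 152 and 1568 CPM in each library. Of 17 genes that mark other lineages (T and NK lymphocytes, myeloid and red cells, fibroblasts and epithelium), 13 stayed below 1 CPM in each library, and 5 had no count at all. Summed, they reached 16.0 to 27.7 CPM in CREBBP+/- libraries and 3.66 to 25.6 CPM for CREBBP+/+. Most of this came from the epithelial gene EPCAM, except in WT_2, where EPCAM had 1.42 of the 3.66 CPM. The part of these 17 genes in the results was not tested.

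Promoter sequences are shown for HDAC10 and HDAC9, which with HDAC5 are the members whose levels did not overlap between the set of 3 and the set of 5. They come from RefSeq (GRCh38.p14), whose table gave 19 windows, each with 250 bases before and 50 after a transcription start, for 9 of the 10 genes. Below, 270 bases are printed 5′ to 3′ on the gene's strand, and the last 20 lie after the start. In HDAC10 (chr22:50251246-50251515, minus strand) capitals mark 4 matches to the GC box GGGCGG or its reverse complement. In HDAC9 (chr7:18086575-18086844, plus strand, 1 of several annotated starts) capitals mark the only match to the MEF2 motif (CTA and TAG with any 4 bases between) among the 19 windows.
HDAC10: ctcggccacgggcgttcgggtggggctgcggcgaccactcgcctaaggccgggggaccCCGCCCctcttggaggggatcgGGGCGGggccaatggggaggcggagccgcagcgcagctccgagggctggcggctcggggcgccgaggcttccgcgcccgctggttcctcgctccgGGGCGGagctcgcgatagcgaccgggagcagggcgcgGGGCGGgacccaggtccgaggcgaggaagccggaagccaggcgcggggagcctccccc
HDAC9: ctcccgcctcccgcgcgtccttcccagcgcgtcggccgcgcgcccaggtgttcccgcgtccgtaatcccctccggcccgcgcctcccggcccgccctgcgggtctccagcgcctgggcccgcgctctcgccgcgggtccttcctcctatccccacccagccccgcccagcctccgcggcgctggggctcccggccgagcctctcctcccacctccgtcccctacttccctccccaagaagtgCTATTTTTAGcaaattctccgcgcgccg
Both strands were searched for each motif. The MEF2 motif was in 2.73% of 35116 promoter windows of all genes. The GC box was in 8 of the 19 windows (HDAC1, HDAC3, HDAC4, HDAC6, HDAC9 and HDAC10) and in 45% of all windows. The cyclic AMP response element TGACGTCA, at which CREB recruits CREBBP, was in 0 of the 19 and in 1.85% of all windows. Its shorter form TGACG, which every full element contains, was in 1 window (HDAC6) and in 24.6% of all. The pattern TTCNNNGAA, a loose form of the BCL6 motif with any base at N, was in 1 window each of HDAC4 and HDAC8 and in 7.66% of all. A match to it does not show a BCL6 site. These matches describe letters only.

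Per length of transcript, HDAC1 was the most abundant deacetylase mRNA and HDAC4 the least. The median over the 10 libraries, in CPM per kilobase of the MANE Select transcript, was 91.3 for HDAC1, 63.5 for HDAC7, 33.7 for HDAC3, 14.7 for HDAC9 and 11.1 for HDAC10. It was 9.99 for HDAC8, 7.47 for HDAC5, 6.96 for HDAC2, 5.95 for HDAC6 and 0.66 for HDAC4. HDAC1 ranged from 75.7 to 123 CPM per kilobase and overlapped no other member, HDAC7 ranged from 55.8 to 74, and HDAC3 from 28.1 to 35.9. The ranges of HDAC9 (12.6 to 16.2) and HDAC10 (7.1 to 18.2) overlapped, as did those of HDAC8 (7.97 to 10.8), HDAC5 (6.27 to 10.3), HDAC2 (6.07 to 8.03) and HDAC6 (4.88 to 6.98), each with its neighbour in that order. The lymphocyte-enriched class IIa enzyme HDAC7 thus stood next to HDAC1, while HDAC4, of the same class, was lower than every other member in each library. The first 5 places were the same with all annotated exons as the length. HDAC8 then moved from place 6 to place 9, where its annotated exons add up to 22.9 kilobases and its MANE Select transcript has 1754 bases. The place of HDAC2 also rests on its length. Its median was 67.8 CPM with a MANE Select transcript of 9737 bases, against 65.2 CPM and 1933 bases for HDAC3. Which isoforms were expressed is not known from counts per gene.

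**Figure D1:**
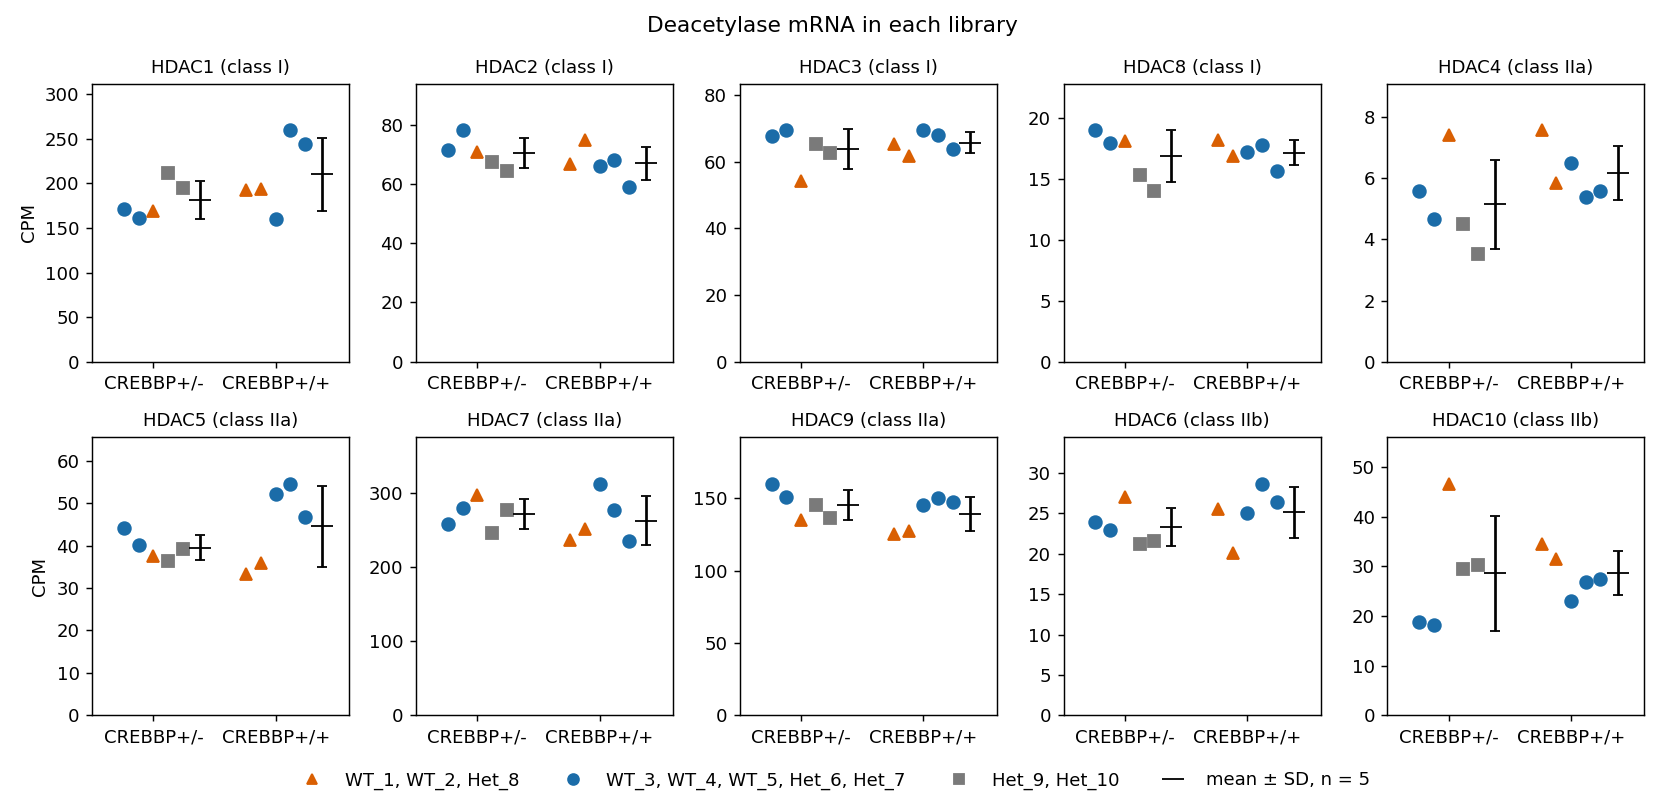
CPM of each deacetylase gene (y axis, from 0) in CREBBP+/- libraries (left in each panel) and CREBBP+/+ libraries (right), 1 point per library, with colour and shape for the library sets and bars for mean ± SD (n = 5). The 2 genotypes overlap in all 10 panels, and HDAC10, with the widest spread relative to its level (SD of log2 CPM 0.40), runs from 18.2 CPM in Het_7 to 46.7 CPM in Het_8.

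Lower CREBBP mRNA came with no called change in any of the 10 deacetylase mRNAs. The comparison asks which transcripts differ between CREBBP+/- and CREBBP+/+ clones. In edgeR's quasi-likelihood test 0 of the 10 members passed an adjusted p of 0.05 (Benjamini-Hochberg over all genes tested), against 0% of all 11961 genes, and 0 members had an unadjusted p under 0.05, against 4.98% of all genes. DESeq2 also called 0 members, against 0.266% of the 12765 genes to which it gave an adjusted p, and limma-voom 0. No member separated the genotypes, against 1.02% of all genes. The median log2 fold change (CREBBP+/- over CREBBP+/+) was -0.03 over the members and -0.01 over all genes tested, and the median of its absolute value was 0.07 and 0.13. For all 10 members the 95% confidence interval of the log2 fold change lay within 1 unit of 0, and for 7 it lay within 0.5 units. Among all genes these counts were 9771 and 5700 of 11961. The 3 members outside 0.5 units were HDAC1, HDAC4 and HDAC10. HDAC4 had the fewest reads, 49 to 144 a library.

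**Figure D2:**
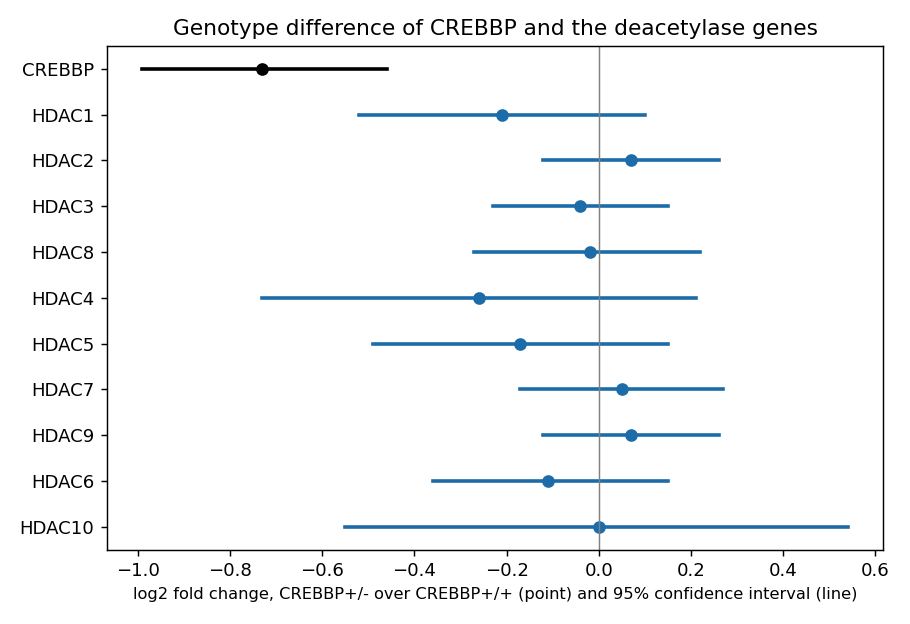
Log2 fold change of CREBBP+/- over CREBBP+/+ libraries (x axis; point) with its 95% confidence interval (line) for CREBBP (black) and the 10 deacetylase genes (blue), from the edgeR fit of 5 against 5 libraries. The interval of CREBBP (-0.99 to -0.46) lies below 0, while all 10 deacetylase intervals include 0.

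Class I enzymes, which include the catalytic subunits of the main corepressor complexes, did not pass the test by genotype. HDAC3 (ENSG00000171720, chromosome 5, 141620876 to 141636849, GRCh38), the enzyme of the NCoR complex, had 67.7, 69.4, 54.3, 65.2 and 62.7 CPM in Het_6 to Het_10, against 65.2, 61.8, 69.5, 68.0 and 63.9 CPM in WT_1 to WT_5. Het_8 was the lowest of the 10, and the other 4 CREBBP+/- libraries lay inside the CREBBP+/+ range. On the log2 scale the genotypes differed by -0.04 (SE 0.08, 95% interval -0.23 to 0.15, edgeR adjusted p = 0.988), and without Het_8 it was 0.01.

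HDAC1 (ENSG00000116478, chromosome 1, 32292083 to 32333635), shared by NuRD, CoREST and SIN3, had 171, 161, 169, 212 and 195 CPM in Het_6 to Het_10, against 193, 194, 160, 260 and 244 CPM in WT_1 to WT_5. WT_4 and WT_5 were higher than the other 8 libraries, and WT_3 was the lowest. HDAC1 had the smallest p of the 10 (log2 fold change -0.21, SE 0.14, interval -0.52 to 0.10, edgeR unadjusted p = 0.159 and adjusted p = 0.988). It ranged from -0.29 without WT_3 to -0.12 without WT_4. With the library sets as a covariate it was -0.34 (SE 0.14, edgeR unadjusted p = 0.0354 and adjusted p = 0.372). It was the only member with an unadjusted p under 0.05 in that fit, against 12.7% of all genes. The annotation holds the pseudogenes HDAC1P1 and HDAC1P2, and how reads shared with them were counted is not known.

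HDAC2 (ENSG00000196591, chromosome 6, 113933028 to 114011308), the close paralog of HDAC1 in the same complexes, had 71.4, 78.2, 70.8, 67.4 and 64.4 CPM in Het_6 to Het_10, against 66.7, 74.7, 65.9, 68.2 and 59.1 CPM in WT_1 to WT_5. The values interleaved, and WT_4 and WT_5, which were highest for HDAC1, were not so for HDAC2. The log2 fold change was 0.07 (SE 0.09, interval -0.12 to 0.26, edgeR adjusted p = 0.988). HDAC8 (ENSG00000147099, chromosome X, 72329516 to 72573101) had 19.0, 17.9, 18.1, 15.3 and 14.0 CPM in Het_6 to Het_10, against 18.2, 16.9, 17.2, 17.8 and 15.6 CPM in WT_1 to WT_5. Het_9 and Het_10 were its 2 lowest libraries. Its log2 fold change of -0.02 (SE 0.11, interval -0.27 to 0.22) was 0.10 without those 2 libraries.

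Class IIa enzymes, which act through MEF2, also did not pass. HDAC7 (ENSG00000061273, chromosome 12, 47782722 to 47833132) had 258, 279, 297, 245 and 277 CPM in Het_6 to Het_10, against 236, 251, 312, 277 and 235 CPM in WT_1 to WT_5. The groups overlapped almost fully (log2 fold change 0.05, SE 0.10, interval -0.17 to 0.27, edgeR adjusted p = 0.988). HDAC4 (ENSG00000068024, chromosome 2, 239048168 to 239401654) had 5.59, 4.68, 7.41, 4.50 and 3.54 CPM in Het_6 to Het_10, against 7.58, 5.84, 6.50, 5.39 and 5.57 CPM in WT_1 to WT_5. It had the most negative estimate (-0.26, SE 0.21, interval -0.73 to 0.21, edgeR adjusted p = 0.988), and 3 CREBBP+/- libraries lay below the CREBBP+/+ range. Without Het_8 its log2 fold change was -0.43 (edgeR adjusted p = 0.533), and without Het_9 and Het_10 together it was -0.06.

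HDAC5 (ENSG00000108840, chromosome 17, 44076746 to 44123702) had 44.1, 40.2, 37.6, 36.4 and 39.3 CPM in Het_6 to Het_10, against 33.3, 35.8, 52.2, 54.6 and 46.8 CPM in WT_1 to WT_5. The CREBBP+/+ libraries spread over a wider range and held both the lowest and the highest values. Its log2 fold change was -0.17 (SE 0.15, interval -0.49 to 0.15, edgeR adjusted p = 0.988), and -0.26 without WT_1 and -0.09 without WT_4. HDAC9 (ENSG00000048052, chromosome 7, 18086949 to 19002416) had 160, 151, 135, 145 and 136 CPM in Het_6 to Het_10, against 125, 127, 145, 150 and 147 CPM in WT_1 to WT_5 (log2 fold change 0.07, SE 0.09, interval -0.12 to 0.26, edgeR adjusted p = 0.988). Its 2 lowest libraries were WT_1 and WT_2.

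Neither class IIb enzyme passed, and HDAC10 had the widest spread of the 10 genes on the log2 scale, with an SD of log2 CPM of 0.40 over all libraries. HDAC10 (ENSG00000100429, chromosome 22, 50245183 to 50251405) had 18.8, 18.2, 46.7, 29.4 and 30.2 CPM in Het_6 to Het_10, against 34.5, 31.6, 23.1, 26.8 and 27.5 CPM in WT_1 to WT_5. The CREBBP+/- libraries included both the 2 lowest and the highest value, so the genotype means coincided at 28.7 ± 11.5 and 28.7 ± 4.44 CPM (SD, n = 5 each). The log2 fold change was near 0 with an interval of -0.55 to 0.54 (SE 0.25, edgeR adjusted p = 0.999), and leaving out 1 library gave -0.25 (without Het_8) to 0.12 (without Het_6 or Het_7). HDAC6 (ENSG00000094631, chromosome X, 48801377 to 48824982) had 23.9, 23.0, 27.0, 21.2 and 21.6 CPM in Het_6 to Het_10, against 25.6, 20.1, 25.1, 28.7 and 26.4 CPM in WT_1 to WT_5. Its log2 fold change was -0.11 (SE 0.12, interval -0.36 to 0.15, edgeR adjusted p = 0.988).

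Between the library sets, HDAC10 was higher and HDAC5 and HDAC9 were lower in the set of 3 than in the set of 5, without overlap. The sets were found by clustering the expression of these same libraries, so their differences are given as descriptions with no test. The other 7 members overlapped, so 3 of 10 members separated the sets, against 45.8% of all genes tested. Of these, 1 was higher in the set of 3 (21.9% of all genes) and 2 were lower (23.9%). The median absolute difference in mean log2 CPM was 0.12 over the members and 0.34 over all genes, and the median SD of log2 CPM over the 10 libraries was 0.15 and 0.27. Marker genes differed between the sets as well. EPCAM had 1.42 to 13.7 CPM in the set of 3, against 19.8 to 26.7 CPM in the set of 5, and 4 of the 5 B cell markers (MS4A1, CD79B, PAX5 and CD22) were lower in the set of 3 without overlap. Their part in the differences was not tested.

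**Figure D3:**
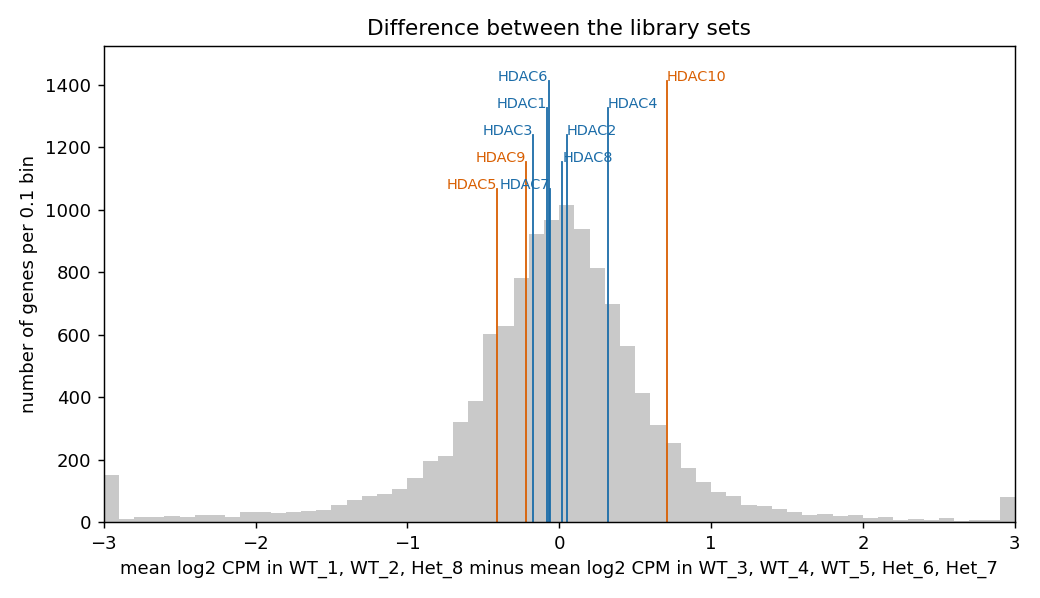
Grey bars count the 11961 tested genes by the mean log2 CPM of WT_1, WT_2 and Het_8 minus that of WT_3, WT_4, WT_5, Het_6 and Het_7 (x axis, bins of 0.1; the outermost bars also hold the 210 genes beyond 3). Lines mark the 10 deacetylase genes, orange where the sets do not overlap (HDAC10 at 0.71, HDAC9 at -0.22, HDAC5 at -0.41) and blue where they do.

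HDAC10 had 34.5, 31.6 and 46.7 CPM in WT_1, WT_2 and Het_8, against 23.1, 26.8, 27.5, 18.8 and 18.2 CPM in WT_3, WT_4, WT_5, Het_6 and Het_7. The difference in mean log2 CPM was 0.71, a 1.64-fold higher level in the set of 3, and the pooled SD within sets was 0.28. With CREBBP+/+ libraries alone (WT_1 and WT_2 over WT_3, WT_4 and WT_5) it was 0.36. The sets were still apart there, but the difference in all 8 libraries rested in part on Het_8, the highest, and on Het_6 and Het_7, the lowest. Het_9 and Het_10, with 29.4 and 30.2 CPM, lay between the sets.

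HDAC5 had 33.3, 35.8 and 37.6 CPM in WT_1, WT_2 and Het_8, against 52.2, 54.6, 46.8, 44.1 and 40.2 CPM in WT_3, WT_4, WT_5, Het_6 and Het_7. The difference was -0.41 (1.33-fold higher in the set of 5, pooled SD 0.15), and -0.56 with CREBBP+/+ libraries alone. HDAC9, whose promoter holds the MEF2 motif printed above, had 125, 127 and 135 CPM in WT_1, WT_2 and Het_8, against 145, 150, 147, 160 and 151 CPM in WT_3, WT_4, WT_5, Het_6 and Het_7. Its difference was -0.22 (1.17-fold higher in the set of 5, pooled SD 0.06), and also -0.22 with CREBBP+/+ libraries alone. In size it was below the median absolute difference of 0.34 over all genes.

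The remaining members differed by 0.32 (HDAC4), 0.05 (HDAC2), 0.02 (HDAC8), -0.06 (HDAC7), -0.07 (HDAC6), -0.08 (HDAC1) and -0.17 (HDAC3), each with overlapping sets. HDAC3 had 54.3 to 65.2 CPM in the set of 3, against 63.9 to 69.5 CPM in the set of 5, where WT_1 lay above WT_5. BCL6, the repressor that recruits HDAC3 complexes, differed far more between these libraries, with 241 to 319 CPM in the set of 3 against 526 to 612 CPM in the set of 5 (difference -1.08). Class I genes had a median difference of -0.03, and 0 of 4 separated the sets.

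HDAC10 and the stress kinase gene MAPK12 overlap on the same strand in the GENCODE annotation of GRCh38, and how the counting treated shared reads is not stated in the labels. MAPK12 had 93.8 to 127 CPM in the set of 3, against 47.5 to 67.0 CPM in the set of 5 (difference 0.88). Among all 11961 genes, the 3 whose pattern over the 10 libraries was most like that of HDAC10 were DNAJC17, ZC3H12A and MAPK12, with root mean square differences of centred log2 CPM of 0.118, 0.129 and 0.131, against a median of 0.456 over all genes. ZC3H12A, an RNase gene, had 48.6 to 56.9 CPM in the set of 3, against 28.3 to 36.5 CPM in the set of 5. For HDAC4, the member with the next largest SD of log2 CPM, the nearest genes were ARMC2 (0.125), MAP3K21 (0.134) and CASK (0.139), against a median of 0.404. CASK had 25.6 to 28.1 CPM in the set of 3 and 18.9 to 21.2 CPM in the set of 5, and was lowest in Het_9 and Het_10 (15.4 and 13.4 CPM), where HDAC4 was lowest too. The genes nearest to HDAC10 and HDAC4 were picked for their likeness out of all genes tested. Their shared pattern follows from that choice and is no separate result.

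**Figure D4:**
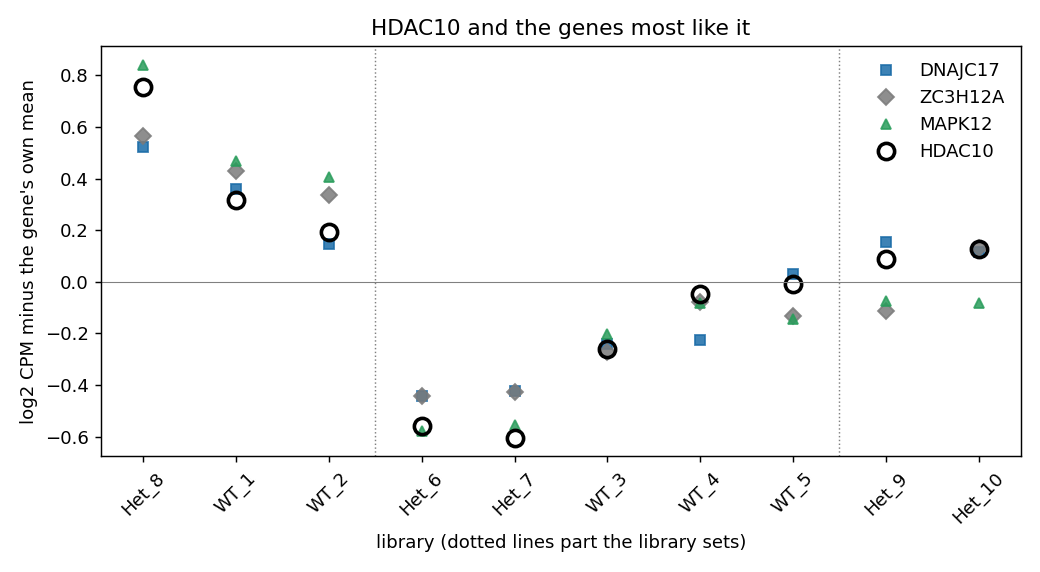
Log2 CPM of HDAC10 (open circles) and of the 3 genes most like it, each minus its own mean over the 10 libraries (y axis), by library (x axis; dotted lines part the library sets). All 4 genes are highest in Het_8 and lowest in Het_6 and Het_7, a likeness for which the 3 were picked.

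Genes next to HDAC10 on chromosome 22 mostly differed in the same direction. Of the 5 tested genes on each side, 9 of 10 had a difference above 0 (median 0.30, range 0.00 to 0.88). The highest value was that of MAPK12, which overlaps HDAC10. Over all genes tested the median difference was -0.01. For HDAC4, 8 of 10 neighbours were above 0 (median 0.48), and for HDAC9 3 of 10 (median -0.14). The neighbours of HDAC5 had a median of 0.12, with 6 of 10 above 0, while HDAC5 itself was at -0.41. G6PC3, whose 3′ part overlaps HDAC5 on the other strand, was also lower in the set of 3, with 19.8 to 23.4 CPM against 24.4 to 28.5 CPM (difference -0.31). Without stated use of strand, reads of HDAC5 and G6PC3 cannot be told apart where they overlap. The same holds for HDAC7 and SLC48A1, which share only a short end on opposite strands. SLC48A1 was lower in the set of 3, with 10.7 CPM or less against 16.8 to 20.8 CPM (difference -0.88), while HDAC7 differed by -0.06.

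Within the library sets, genotype differences of HDAC10, HDAC5 and HDAC6 had opposite signs, without overlap of the genotypes in either set. Those of HDAC3, HDAC4 and HDAC7 also had opposite signs, but with overlap in the set of 5. Het_8 lay above WT_1 and WT_2, and Het_6 and Het_7 lay below WT_3, WT_4 and WT_5, for 3 of 10 members, against 13.8% of all genes that showed such a reversal in either order. For HDAC10 the CREBBP+/- minus CREBBP+/+ difference in log2 CPM was 0.50 in the set of 3 and -0.47 in the set of 5. For HDAC5 the 2 differences were 0.12 and -0.28, and for HDAC6 they were 0.25 and -0.19. The set of 3 holds a single CREBBP+/- library, so a genotype difference there cannot be told apart from Het_8 itself.

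**Figure D5:**
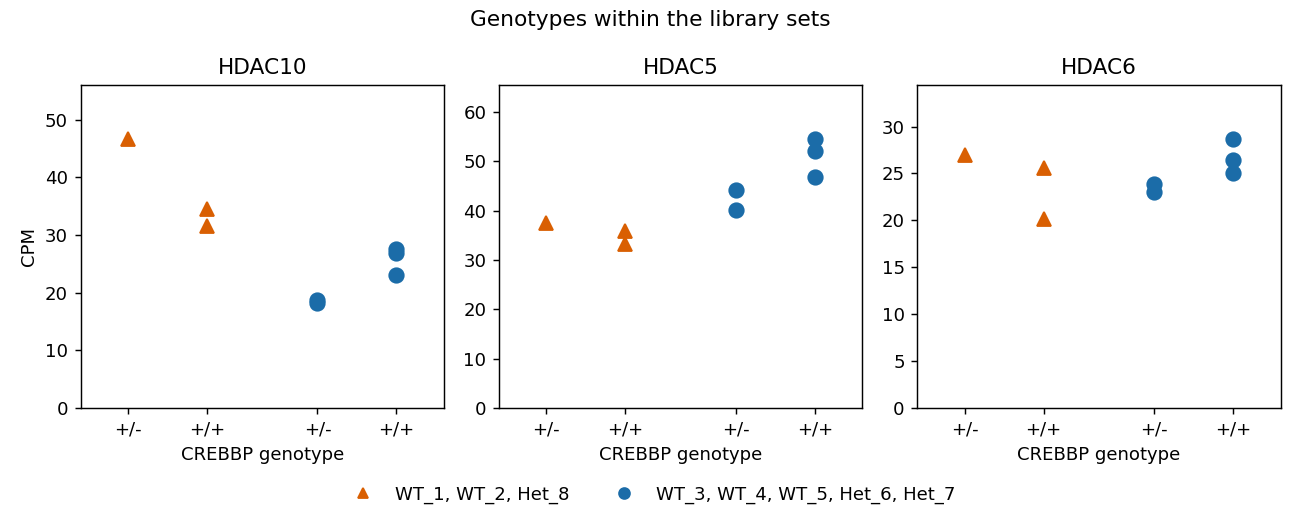
CPM of HDAC10, HDAC5 and HDAC6 (y axis, from 0) by CREBBP genotype within WT_1, WT_2 and Het_8 (orange triangles, left) and within WT_3, WT_4, WT_5, Het_6 and Het_7 (blue circles, right), 1 point per library. In each panel Het_8 lies above WT_1 and WT_2 on the left, and Het_6 and Het_7 lie below WT_3, WT_4 and WT_5 on the right.

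The difference between these differences was tested as an interaction of genotype and library set in edgeR over these 8 libraries, chosen with the values already known. The fit assumes that Het_8, alone in its group, varies like the other libraries, and these genes are described because they showed the reversal, so it is no independent support for it. For HDAC10 the interaction was 0.97 on the log2 scale (SE 0.18, edgeR adjusted p = 0.187). For HDAC5 it was 0.40 (SE 0.17, edgeR adjusted p = 0.379), and for HDAC6 0.42 (SE 0.22, edgeR adjusted p = 0.444). Over all genes 0 members passed, against 0.0821% of all genes (10 of 12179). Within the set of 5 alone, 2 members had an unadjusted p under 0.05 (HDAC10, -0.47, SE 0.12, edgeR unadjusted p = 0.00609; HDAC5, -0.28, SE 0.10, unadjusted p = 0.0321), against 12.5% of all genes. Neither passed over all genes (edgeR adjusted p = 0.392 for both), nor did any of the 12117 genes in that fit.

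HDAC11, the class IV enzyme, is not among the 10 genes and had few reads. It had 1.49, 0.772, 0.872, 0.643 and 0.606 CPM in Het_6 to Het_10, against 0.247, 0.0546, 1.67, 1.15 and 0.938 CPM in WT_1 to WT_5, which is 1 to 37 reads a library. The log2 fold change was 0.11 (SE 0.65, edgeR adjusted p = 0.993). The NAD-dependent sirtuins, which form the separate class III, had all 7 genes tested and 0 called by genotype. Point estimates were below 0 for each (median -0.09), as they were for 6266 of the 11961 genes tested. SIRT5, at -0.29 (SE 0.21), had the smallest p of the 7 (edgeR unadjusted p = 0.185). Between the library sets 4 of 7 did not overlap, beside 45.8% of all genes. SIRT4 had the largest difference (0.70), with 0.801 to 1.09 CPM in the set of 3 against 0.469 to 0.820 CPM in the set of 5, and its sets overlapped.

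Partners of the deacetylases were described from lists of complex subunits. Of 38 tested subunits of NuRD, CoREST, SIN3 and NCoR, and the MiDAC and MIER complexes, edgeR called 0 by genotype, 20 had an estimate above 0 and 18 below, and the median was 0.01. Among the genes with the smallest p in their lists were the methyl-CpG-binding family protein gene MBD3 in NuRD (log2 fold change -0.26, SE 0.13), the demethylase gene KDM1A in CoREST (-0.27, SE 0.12), ARID4A in SIN3 (0.24, SE 0.11) and MIER3 in the MiDAC and MIER complexes (0.12, SE 0.09). For KDM1A, edgeR gave an unadjusted p of 0.0471 and an adjusted p of 0.977.

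Between the library sets 18 of the 38 subunits did not overlap, beside 45.8% of all genes. In the set of 3, 4 were higher and 14 lower, beside 21.9% and 23.9% of all genes. NuRD held 6 of the 14, and 11 of the 38 tested subunits. Its subunit MTA3, which is known to work with BCL6 in germinal centre B cells, had 46.9 to 80.0 CPM in the set of 3, against 134 to 174 CPM in the set of 5 (difference -1.41). TBL1XR1, a subunit of the NCoR complex, had 509 to 641 CPM in the set of 3, against 282 to 341 CPM in the set of 5 (difference 0.82). MIER1, a scaffold of HDAC1 and HDAC2, had 99.5 to 118 CPM against 57.1 to 76.6 CPM (0.72), and ING1 of SIN3 had 10.6 to 11.5 CPM against 12.9 to 17.7 CPM (-0.44). The catalytic subunits HDAC1, HDAC2 and HDAC3 stood within 0.17 log2 units in the same comparison. KDM1A had the largest difference in CoREST (0.23), with overlapping sets.

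Partners of class IIa enzymes were not called by genotype either (0 of 19 tested). The smallest p belonged to MEF2D among MEF2 factors (log2 fold change -0.24, SE 0.10), YWHAE among 14-3-3 proteins (0.07, SE 0.08) and CAMK2D among kinases (-0.29, SE 0.09, edgeR unadjusted p = 0.00872, adjusted p = 0.869). Between the library sets 10 of the 19 did not overlap, 2 higher and 8 lower in the set of 3, beside 45.8% of all genes (21.9% higher and 23.9% lower). MEF2B, which is often mutated in germinal centre lymphoma and binds class IIa enzymes, had 180 to 229 CPM in the set of 3, against 472 to 758 CPM in the set of 5 (difference -1.58). Of the class IIa genes, HDAC9 and HDAC5 were also lower in the set of 3. HDAC7 (-0.06) and HDAC4 (0.32) overlapped, and a link between MEF2B and these genes was not tested. The 14-3-3 gene YWHAZ had 295 to 413 CPM against 679 CPM or more (-1.01). The kinase gene CAMK4 had 169 to 219 CPM against 60.4 to 91.2 CPM (1.33).

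Among 11 DNA-binding repressors and cofactors that recruit deacetylases, 0 were called by genotype, with IKZF1 at the smallest p (log2 fold change -0.30, SE 0.12, edgeR adjusted p = 0.977). Between the library sets 8 of 11 did not overlap, beside 45.8% of all genes, and the largest difference was that of PRDM1, with 1.79 to 3.71 CPM in the set of 3 against 39.6 to 66.6 CPM in the set of 5 (-4.23). The acetyltransferase gene EP300 did not pass by genotype (log2 fold change 0.06, SE 0.11), and had 159 to 172 CPM in the set of 3 against 130 to 143 CPM in the set of 5 (difference 0.31).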

How the data were processed

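The table the authors deposited holds unnormalized counts of reads for each Ensembl gene and library. The submitters' processing notes name STAR, featureCounts, FastQC, DESeq2 and build GRCh38. On versions, annotation, counting options and strandedness, nothing is given in the sources used here. Columns Het_6 to Het_10 carry numbers that no labelled clone has, so they were used as members of the CREBBP+/- group. Of 21174 identifiers, 20804 were matched to a symbol. Counts were tested with edgeR 4.0.16 in R 4.3.3 (quasi-likelihood F-test, TMM, robust, no covariate, filterByExpr with minimum count 10 and minimum total 15, Benjamini-Hochberg over 11961 genes, threshold 0.05), 5 against 5 libraries. Log2 CPM had a prior count of 2. DESeq2 1.42.0, limma-voom (limma 3.58.1), other scalings and filters, and left-out libraries were alternatives. The genes, the lists, the library sets and the rule for named genes (all members, and from each list the gene with the smallest p and the gene with the largest set difference) were chosen with earlier results of these data known. The rule allowed up to 3 and 2 genes a list; 1 of each was kept. Some listed genes are not reported here. Neighbouring and overlapping genes and the interaction were added after the data were seen. Lengths and coordinates are from GENCODE on GRCh38.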

Additional observations from a re-analysis of the deposited data

Results flagged for a closer look

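For 3 of 10 members the genotypes differed in opposite directions in the set of 3 and the set of 5, without overlap in either. Such a reversal, in either order, was shown by 13.8% of all genes. Differences of HDAC3, HDAC4 and HDAC7 also had opposite signs, but their genotypes overlapped in the set of 5. Het_9 and Het_10 are in neither set. In WT_1, WT_2 and Het_8 the CREBBP+/- minus CREBBP+/+ difference in log2 CPM was 0.50 for HDAC10, 0.12 for HDAC5 and 0.25 for HDAC6, and in WT_3, WT_4, WT_5, Het_6 and Het_7 it was -0.47, -0.28 and -0.19 in the same order. The edgeR interaction test gave adjusted p-values of 0.187, 0.379 and 0.444, so none passed. The set of 3 libraries holds Het_8 as its only CREBBP+/- library, so genotype and library cannot be told apart there.

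A library stood far from the other 4 of its group in 3 of 64 groups of values over the 32 named genes, where chance gives about 1 in 20 (3.2). None of the 3 was a deacetylase. Het_8 was lower than the 4 other CREBBP+/- libraries for MEF2B (log2 CPM 7.49, next 8.82) and for YWHAZ (8.20, next 9.19), and WT_3 was lower than the 4 other CREBBP+/+ libraries for KDM1A (7.29, next 7.71). MEF2B and YWHAZ were named for their large difference between the library sets, so the chance rate does not apply to them. Het_8 is the only CREBBP+/- library of the set of 3. In WT_1 and WT_2, also of that set, MEF2B had 229 and 203 CPM, against 180 CPM in Het_8. YWHAZ had 409 and 413 CPM there, against 295 CPM in Het_8.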

How the results depend on the processing

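No deacetylase gene was called under any of the 19 alternatives to the genotype fit, and none separated the genotypes under 3 other scalings. Over all genes the count of 0 became 34 with DESeq2, and 0 to 1 leaving out 1 library (1 without Het_6). CREBBP had a log2 fold change of -0.72 with DESeq2 (adjusted p = 0.000105). Estimates near 0 changed sign. HDAC3 was 0.03 in the set of 5 alone (-0.07 to 0.01 leaving out 1 library) and HDAC7 was -0.03 there. HDAC8 was 0.13 in the set of 5 alone, 0.10 with the library sets as a covariate, 0.10 without Het_9 and Het_10, 0.00 with upper-quartile factors and -0.07 to 0.04 leaving out 1 library. HDAC10 was 0.00 with a filter of 1 CPM in 5 libraries or DESeq2 size factors, 0.03 with upper-quartile factors and -0.25 to 0.12 leaving out 1 library. HDAC11 was -0.14 in the set of 5 alone and -0.19 to 0.55 leaving out 1 library. The cause was not tested. Differences between the library sets moved past the spread within sets with CREBBP+/+ libraries alone, to 0.36 for HDAC10, -1.74 for MTA3 and 0.95 for TBL1XR1. Leaving out 1 library gave 0.55 to 0.83 for HDAC10, -0.47 to -0.36 for HDAC5 and -0.26 to -0.20 for HDAC9. No paired analysis was possible because the CREBBP+/- columns carry numbers that no CREBBP+/+ column shares. Depth limits HDAC4 (49 to 144 reads a library) and HDAC11 (1 to 37 reads).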
